A study of Mus musculus with 6 samples.

Results

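The nuclear genes of oxidative phosphorylation (OXPHOS) were followed in cortical neurons of newborn mice electroporated with a control plasmid or with a sponge plasmid for miR-17-5p. The genes were taken by symbol alone: the Nduf subunits of complex I, Sdha to Sdhd of complex II, the Uqcr genes and Cyc1 of complex III, the Cox4 to Cox8 families of complex IV, the Atp5 genes of complex V, and Cycs, the somatic cytochrome c. This rule uses no measured value, but it was chosen with earlier results of these data known. It gave 89 of the 35510 genes of the count table, 39 for complex I, 4 for complex II, 9 for complex III, 1 for cytochrome c, 18 for complex IV and 18 for complex V. Of these, 82 had a mean of at least 10 normalised counts over the 6 libraries and entered the tests (36, 4, 9, 1, 14 and 18). The other 7 were Ndufa11b, Ndufb4c, Ndufs6b and Cox6c2, which the annotation lists as processed pseudogenes, and the coding genes Cox6a2, Cox7b2 and Cox8b.

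The study addressed the part of neuronal miR-17-5p in connections between the cortical hemispheres after prenatal alcohol exposure. Both groups here were wild-type Swiss (RjOrl:SWISS) embryos electroporated in utero at E15.5, 3 libraries with a control plasmid and 3 with a plasmid carrying a miR-17-5p sponge, a transcript with binding sites that draws the microRNA away from its targets. Neurons were collected at P0, the day of birth, and RNA of about 100000 cells from about 10 brains was pooled for a library. The column names carry the word FACS, the sorting of cells by fluorescence; the gate is not given in the sources used here. No label says whether the libraries of a group came from separate litters, so the p-values measure the spread between these pools.

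Oxidative phosphorylation couples the oxidation of nutrients to ATP synthesis at the inner mitochondrial membrane. Complexes I and II pass electrons from NADH and succinate to ubiquinone, complex III passes them to cytochrome c, and complex IV passes them to oxygen; complex V, the ATP synthase, uses the proton gradient that complexes I, III and IV build. Apart from complex II, each complex combines subunits encoded in the nucleus with a few encoded in mitochondrial DNA. Neurons depend strongly on this pathway, and several of its subunits exist as tissue-specific versions. Transcription of the nuclear subunits is known to draw on the factors NRF1 and GABP (which binds ETS sites) and on the coactivator encoded by Ppargc1a.

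The microRNA is shown first because the sponge acts on it, with its seed (bases 2 to 8) in capitals, as RefSeq places it at chr14:115043684-115043706 on the plus strand of GRCm38.p6.

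miR-17-5p: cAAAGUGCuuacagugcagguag

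The reverse complement of that seed, as DNA, GCACTTT, was searched in the annotated 3′ UTR of the principal transcript of the 84 OXPHOS genes that have one, whose median length was 160.5 bases. Matches in 4 of them are shown, with the match in capitals. For 2 other members the result of the search is not reported here.

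Sdhd: cctgggtgcaGCACTTTgattgtgt

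Ndufb2: tcaattacataGCACTTTttgggggg

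Ndufa10: cacccacccctGCACTTTgggtctct

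Cycs: ggtcagaggcaGCACTTTgtgacaaa

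These matches begin at base 11 of the 728-base 3′ UTR of Sdhd, 3926 of 4012 in a long transcript of Ndufb2, 430 of 829 in Ndufa10 and 1143 of 2674 in Cycs. A match is a description of letters and does not show binding. The values of these 4 genes are given with their complexes below.

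Promoter windows, 250 bases before to 50 after the start given by RefSeq for GRCm38.p6, were matched for 69 of the 88 OXPHOS symbols. Words of 3 factors known from these promoters were searched on both strands: GCGCATGC (NRF1; the word and its complement overlap within a palindrome), CCGGAAG (ETS, the family of GABP) and AAGATGG (YY1). The NRF1 word was in 11 of 69 windows, 15.9%, against 4.97% of the 12097 windows of tested protein-coding genes. The ETS word was in 16, 23.2% against 15.9%, and the YY1 word in 10, 14.5% against 6.74%. Of the 10 windows with the YY1 word, 7 belonged to complex I, where it was in 21.9% of 32 windows. The windows holding the NRF1 word were those of Atp5g2, Atp5k, Atp5l, Cox6a1, Cycs, Ndufa6, Ndufa8, Ndufa11, Sdhb, Uqcr11 and Uqcrc1. The windows of Cycs (chr6:50566520-50566819, minus strand), Cox6a1 (chr5:115348909-115349208, minus strand) and Sdhb (chr4:140961021-140961320, plus strand) are printed because they carry it upstream of the start, in genes of 3 different steps of the chain, with the NRF1 and ETS words in capitals.

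Cycs: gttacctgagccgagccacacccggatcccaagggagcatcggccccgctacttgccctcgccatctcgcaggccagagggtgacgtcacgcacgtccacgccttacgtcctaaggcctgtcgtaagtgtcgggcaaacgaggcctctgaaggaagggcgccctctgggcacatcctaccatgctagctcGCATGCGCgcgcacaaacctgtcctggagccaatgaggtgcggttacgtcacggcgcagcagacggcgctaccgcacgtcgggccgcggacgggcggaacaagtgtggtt

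Cox6a1: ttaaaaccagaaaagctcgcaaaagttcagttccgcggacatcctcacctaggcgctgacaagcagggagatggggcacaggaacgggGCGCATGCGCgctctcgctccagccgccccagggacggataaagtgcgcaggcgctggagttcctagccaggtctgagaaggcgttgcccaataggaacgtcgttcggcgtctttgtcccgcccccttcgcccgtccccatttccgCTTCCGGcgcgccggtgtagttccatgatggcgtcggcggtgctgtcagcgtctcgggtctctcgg

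Sdhb: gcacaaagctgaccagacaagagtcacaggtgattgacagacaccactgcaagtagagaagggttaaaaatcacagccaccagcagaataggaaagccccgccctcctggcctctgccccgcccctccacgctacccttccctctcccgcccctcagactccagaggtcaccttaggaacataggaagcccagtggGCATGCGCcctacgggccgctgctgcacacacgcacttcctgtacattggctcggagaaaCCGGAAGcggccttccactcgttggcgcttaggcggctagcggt

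In Cycs the NRF1 word lay on the opposite strand from base -60 relative to the start. In Cox6a1 it was the palindrome from -162, followed by the ETS word on the opposite strand from -16. In Sdhb it lay on the opposite strand from -54, and the ETS word from base 6 after the start.

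Each library held 115445910 to 138254412 counts, and neuron markers were well represented, the lowest of 11, Slc17a7 (a vesicular glutamate transporter), with a mean of 469 normalised counts. The 11 summed to 576571 to 667296 in the controls and 634233 to 646612 in the sponge libraries. Markers of other cells were present too. The 7 of radial glia and progenitors summed to 153660 to 181612 and 156100 to 182842, and the 5 of astrocytes to 179362 to 236820 and 215986 to 290778. The OXPHOS values are thus those of mixed pools, not of neurons alone. Control library 1 stood apart from the 5 others in the OXPHOS genes and in others, so the results below are given with and without it. Its summed erythroid markers (5 of 5 measured, none at 0 in every library) reached 32172 normalised counts, against 1392 and 3021 in controls 2 and 3 and 3065 to 4187 in the sponge libraries. Its 6 microglia markers summed to 3897, against 1641 to 2146 in the others. Markers of the oligodendrocyte lineage, 5 of 5 measured, did not overlap between the groups: 84935 to 104807 in the controls and 111800 to 125447 in the sponge libraries. The part of these marker lists in the OXPHOS values was not tested.

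OXPHOS transcripts made up 1.01% of all counts in control library 1, 0.577% and 0.530% in controls 2 and 3, and 0.620%, 0.612% and 0.597% in sponge libraries 1, 2 and 3. Control library 1 was the highest of the 6 libraries for 82 of 82 tested OXPHOS genes; among all 22479 tested genes it was the highest for 33.8%. Its value was at the median 1.90-fold the median of the other 5 libraries, and at least 2-fold for 32 genes, with a range from 1.07-fold for Ndufs1 to 4.04-fold for Cox7b. By complex the median excess was 1.89-fold for complex I, 1.67 for complex II, 2.06 for complex III, 1.58 for cytochrome c, 2.13 for complex IV and 1.83 for complex V. Among the other 5 libraries the genes were close together: the highest was at the median 1.23-fold the lowest, against 1.38-fold over all tested genes. Control library 3 was the lowest of the 6 for 60 of the 82 genes (73.2%, against 21.5% of all tested genes). Among the 5 libraries other than control library 1, sponge library 1 was the highest for 57, against 6185 of all 22479 tested genes. The SD over libraries of log2 values had a median of 0.412 with control library 1 and 0.120 without it. In such bulk libraries, fewer cells of a type and less RNA per cell cannot be told apart.

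**Figure D1:**
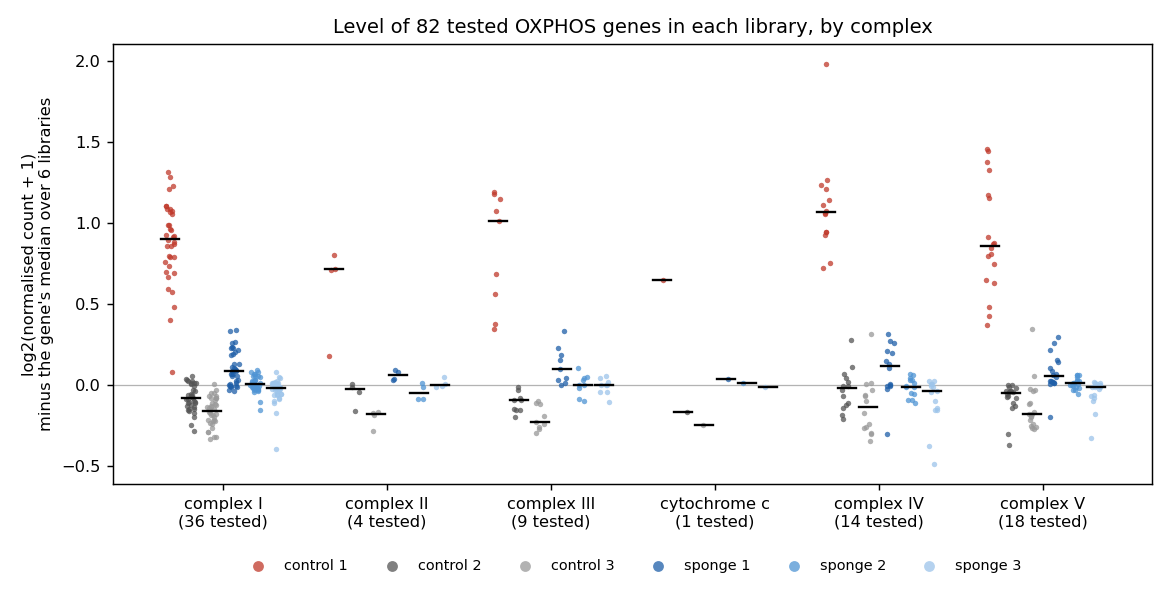
Each point is 1 of the 82 tested OXPHOS genes in 1 library, as log2(normalised count + 1) minus the gene's median over the 6 libraries (y axis), grouped by complex (x axis); black bars are medians over genes. Control library 1 (red) lies above the 5 other libraries in every complex, by a median of 1.67-fold (complex II) to 2.13-fold (complex IV) in the 5 complexes and 1.58-fold for cytochrome c.

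Complex I takes electrons from NADH, and its 36 tested genes all had a negative log2 fold change (sponge minus control), with a median of -0.20. None passed the test, as for all 22479 tested genes (0% higher and 0% lower). Ndufv1, which carries the flavin that accepts the electrons, had 18039.8, 12223 and 11027 normalised counts in control libraries 1 to 3 and 11798, 12703 and 11979 in sponge libraries 1 to 3. The sponge values lay between the controls. Its log2 fold change was -0.15 ± 0.19 (SE; limma, Benjamini-Hochberg adjusted p = 0.925) and 0.066 ± 0.082 without control library 1. Ndufs1 (ENSMUSG00000025968, chr1:63143596-63176833 in GRCm38), the largest iron-sulphur subunit, had the most even values of the complex, 11896, 11577 and 10897 in the controls and 11368, 10464 and 11169 in the sponge libraries, so that control library 1 exceeded the rest by only 1.07-fold. The log2 fold change of Ndufs1 was -0.059 ± 0.11, with a 95% interval of -0.30 to 0.19, and -0.031 ± 0.079 without that library.

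The accessory subunits of complex I, which surround the catalytic core and help to stabilise it, had a larger excess in control library 1 (1.91-fold over 29 tested genes) than the 7 core subunits (1.62-fold). Accessory subunits also had shorter transcripts, with a median of 645 bases against 1312 for the core subunits. Ndufa3, an accessory membrane subunit and the complex I gene of smallest p, had 6924, 3065 and 2795 in the controls and 3130.2, 2649 and 2836 in the sponge libraries. Controls 2 and 3 overlapped the sponge values, and the log2 fold change of -0.44 ± 0.32 (limma, adjusted p = 0.925) became -0.031 ± 0.11 without control library 1. Ndufb7, a subunit on the intermembrane side, had 11019, 5116 and 4955 in the controls and 5654, 5364 and 5039 in the sponge libraries, a log2 fold change of -0.29 ± 0.29, which turned to 0.087 ± 0.088 without control library 1. Of the genes with a seed match, Ndufb2 had 5192, 2699 and 2846 in the controls and 3136, 3165 and 2656 in the sponge libraries. Ndufa10, another accessory subunit, had 14286, 10304 and 8528 in the controls and 10163, 10035 and 10809 in the sponge libraries. Their log2 fold changes, -0.20 ± 0.25 and -0.063 ± 0.19, were within the range of the complex, -0.44 to -0.031, and were 0.10 ± 0.11 and 0.14 ± 0.094 without control library 1.

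Levels were compared between genes only per kilobase of transcript, as the median normalised count per kilobase over the 5 libraries other than control library 1. In complex I they ran from 609 for Ndufb4 and 1179 for Ndufb2 to 17012 for Ndufa4 and 16737 for Ndufc2. Ndufa4, named for complex I but since placed in complex IV, spanned 16042 to 22460.5 per kilobase over these libraries and Ndufc2 13913 to 19804, so their order is not resolved. Ndufv1 (7837) had a higher level per kilobase than Ndufs1 (4254), without overlap. The low level of Ndufb4 has a limit of counting: 37.0% of the 50-base words of its transcript also occur in transcripts of other genes, its processed copy Ndufb4c among them, where reads of unclear origin may have been dropped or split. Ndufb4c itself had at most 7.07 normalised counts in a library. The length taken for Ndufb2 is the median of a short and a long transcript form, which lowers its level per kilobase.

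Complex II links the tricarboxylic acid cycle to the chain, and its 4 genes had a median log2 fold change of -0.12 and, without control library 1, of 0.11. Sdha, the flavoprotein that oxidises succinate, had 24566, 21806 and 19267 in the controls and 22198, 20469 and 21564 in the sponge libraries. This was a log2 fold change of -0.025 ± 0.13, with a 95% interval of -0.32 to 0.27. Sdhb, the iron-sulphur subunit, had 16187, 9602 and 8798 in the controls and 10155, 9299 and 10212 in the sponge libraries, a log2 fold change of -0.17 ± 0.22 (limma, adjusted p = 0.925) that was 0.10 ± 0.084 without control library 1. The membrane anchors Sdhc and Sdhd bind ubiquinone. Sdhc had 17158, 10356 and 9187 in the controls and 11113, 10330.5 and 10489 in the sponge libraries, a log2 fold change of -0.15 ± 0.22 that was 0.13 ± 0.084 without control library 1. Sdhd, whose 3′ UTR holds a seed match near its beginning, had 12095, 6199.5 and 5701 in the controls and 7350.4, 6989 and 6886 in the sponge libraries. All 3 sponge values of Sdhd lay above controls 2 and 3 and below control 1, and the log2 fold change was -0.091 ± 0.27 with control library 1 and 0.25 ± 0.084 without it (limma, adjusted p = 0.648). Levels per kilobase were 8408 for Sdhb, 7436 for Sdha, 5594 for Sdhd and 5196 for Sdhc.

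Complex III, the cytochrome bc1 complex, held the only tested OXPHOS gene with a positive log2 fold change over the 6 libraries, Uqcrc2. Uqcrc2 (ENSMUSG00000030884, chr7:120635176-120659524 in GRCm38), a core protein related to mitochondrial processing peptidases, had 19522, 13546 and 12243 normalised counts in the controls and 16102, 15023 and 15075 in the sponge libraries. The sponge values lay above controls 2 and 3, and the log2 fold change was 0.057 ± 0.18 with all libraries and 0.26 ± 0.081 without control library 1 (limma, adjusted p = 0.961 and 0.648). Its partner Uqcrc1 had 24208, 15368 and 13723 in the controls and 16380.3, 16764 and 16392 in the sponge libraries, with log2 fold changes of -0.061 ± 0.21 and 0.19 ± 0.079. Cyc1 encodes cytochrome c1, which hands the electron to cytochrome c. It had 15820.2, 11787 and 11602 in the controls and 12841, 12874 and 12062 in the sponge libraries, a log2 fold change of -0.039 ± 0.15 that was 0.11 ± 0.076 without control library 1. Uqcrfs1, the Rieske iron-sulphur protein, had 17543, 10781 and 9209 in the controls and 11000, 10178 and 11237 in the sponge libraries, which lay between the controls.

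The small subunits of complex III differed more between control library 1 and the rest. Uqcrh, the acidic hinge protein, had 19098, 7840.1 and 7717 in the controls and 9477, 8607 and 8096 in the sponge libraries, and its log2 fold change of -0.27 ± 0.33 was 0.16 ± 0.088 without control library 1. Uqcrb, which binds near the ubiquinone site, had 8046, 3903 and 3492 in the controls and 4059.6, 3753 and 4129 in the sponge libraries, with log2 fold changes of -0.27 ± 0.29 and 0.11 ± 0.097; 43.2% of its 50-base words are shared with other genes. Without control library 1, 7 of the 9 genes of complex III had sponge values that were all above controls 2 and 3 (13.4% of all tested genes did), and the median log2 fold change was 0.18. Per kilobase, Uqcrh had the highest level (17062), above Uqcrc1 (9909) and Uqcr11 (9859.5), whose ranges of 8302 to 10142 and 8989.9 to 11103 overlapped. The other complex III genes lay between 7295 (Uqcrb) and 8289 (Uqcrq).

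Cycs (ENSMUSG00000063694, chr6:50562563-50566538 in GRCm38), the soluble carrier between complexes III and IV and a trigger of apoptosis when released, had 4335, 2459 and 2327 normalised counts in the controls and 2832, 2789 and 2738 in the sponge libraries. The sponge values had an SD of 46.9 and lay above controls 2 and 3. Its log2 fold change was -0.066 ± 0.24 with control library 1 and 0.22 ± 0.098 without it (limma, adjusted p = 0.966 and 0.660). Its transcript is the longest of the set, 3123 bases, with a seed match in its 3′ UTR, and 28.2% of its 50-base words are shared with processed copies and other genes. Its level per kilobase was 877.

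**Figure D2:**
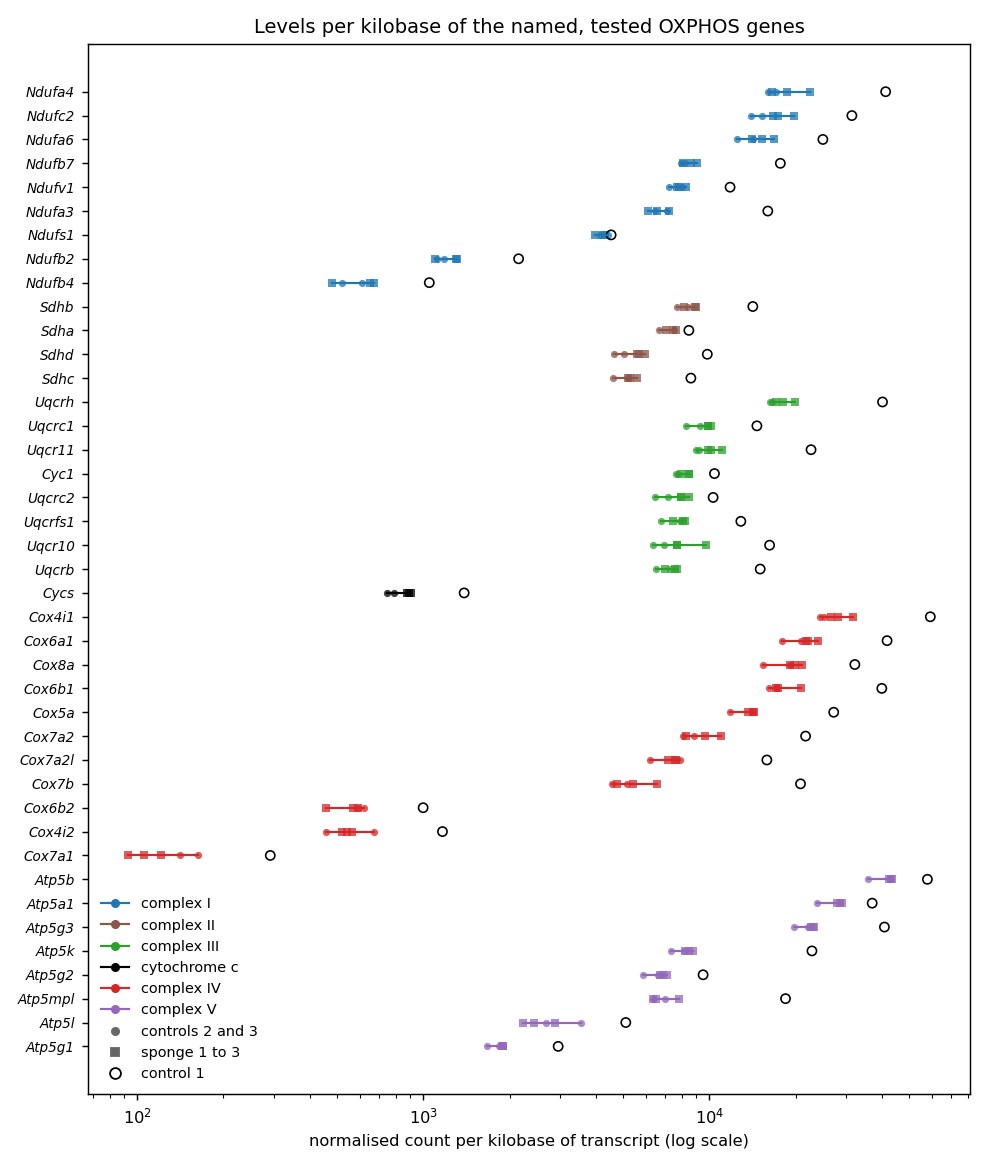
Normalised counts per kilobase of transcript (x axis, log scale) of the named, tested OXPHOS genes (y axis), ordered by level within each complex; filled circles are controls 2 and 3, squares the sponge libraries, lines their range, and open circles control library 1. Levels of the 82 tested genes span 121 (Cox7a1) to 42665 (Atp5b), and the open circle lies to the right of the line for each gene.

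Complex IV, cytochrome c oxidase, had the lowest median log2 fold change of the complexes over the 6 libraries, -0.29, beside its excess of 2.13-fold in control library 1; without that library its median was 0.13. Cox4i1, the common form of the nuclear subunit that regulates the enzyme, had 44649, 18967 and 18368 normalised counts in the controls and 23889.5, 21313 and 20075 in the sponge libraries. For Cox4i1 the log2 fold change was -0.20 ± 0.32 and 0.22 ± 0.088 without control library 1 (limma, adjusted p = 0.931 and 0.656). Cox5a had 17529.6, 9095 and 7629 in the controls and 9134, 8811 and 9265 in the sponge libraries, with control 2 among the sponge values and control 3 below them. Cox7b (ENSMUSG00000031231, chrX:106015700-106022450), a small X-linked subunit, had the largest gap of the 82 tested members: 20828, 4565 and 5156 in the controls and 6564, 5389 and 4768 in the sponge libraries, 4.04-fold for control library 1 over the median of the other 5. The log2 fold change of Cox7b, -0.51 ± 0.53, was 0.19 ± 0.13 without that library.

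Several subunits of complex IV are encoded by more than 1 gene, and in these libraries the widely expressed version had the higher level in each pair. Per kilobase, Cox4i1 was 37.5 to 58.3 times the level of Cox4i2, the lung version, over the 6 libraries. Cox6b1 was 27.2 to 40.1 times Cox6b2, the testis version. Cox7a2 was 53.9 to 104 times Cox7a1, the heart and muscle version. The ratio of Cox7a2 to Cox7a1 was 74.3, 57.4 and 53.9 in the controls and 104, 79.4 and 89.1 in the sponge libraries, with no overlap. This ratio rests on Cox7a1, whose own values do not overlap between the groups, so it is no separate result. The ratios of Cox4i1 to Cox4i2 and of Cox6b1 to Cox6b2 overlapped. Cox6a1 and Cox8a had 21802 and 19109.6 per kilobase, while their muscle versions Cox6a2 and Cox8b had no count in 4 of the 6 libraries each and at most 6.25 normalised counts. Cox7b2, the testis relative of Cox7b, had no count in 3 libraries and at most 12.6.

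Cox7a1 and Cox6b2 were the 2 members whose 6 libraries did not overlap between the groups, both with lower values in the sponge libraries. Cox7a1 (ENSMUSG00000074218, chr7:30184144-30186078 in GRCm38) had 128, 62.0 and 71.8 in the controls and 46.3, 53.1 and 40.6 in the sponge libraries, 87.3 ± 35.6 in the controls and 46.7 ± 6.26 in the sponge libraries (SD, n = 3 each). All sponge values lay below all controls, also without control library 1. Cox7a1 had a log2 fold change of -0.82 ± 0.39, with a 95% interval of -1.74 to 0.087 (limma, adjusted p = 0.925), and -0.51 ± 0.39 without control library 1 (adjusted p = 0.754). The 4 muscle markers summed to 148 to 212 normalised counts in the controls and 154 to 236 in the sponge libraries, which overlap; their part in the value of Cox7a1 was not tested. Cox6b2 (ENSMUSG00000051811, chr7:4751792-4753094) had 434, 269 and 258 in the controls and 256, 247 and 198 in the sponge libraries, close to one another apart from control 1 and sponge 3. Its log2 fold change was -0.42 ± 0.28 (limma, adjusted p = 0.925) and -0.18 ± 0.23 without control library 1. These 2 genes are 2.44% of the 82 tested members, and 5.04% of all tested genes had no overlap with lower sponge values, so the count is no result about the members.

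Complex V, the ATP synthase, holds the highest levels of the set. Atp5b, the catalytic beta subunit, had 42665 normalised counts per kilobase, and its range over the 5 libraries, 35759 to 43467, lay above that of Atp5a1, the alpha subunit (23679 to 29064). The range of Atp5a1 overlapped that of Cox4i1 (24329 to 31642). Atp5b had 110695, 81747 and 68514 normalised counts in the controls and 83282, 81415 and 82853 in the sponge libraries, a log2 fold change of -0.047 ± 0.18 with a 95% interval of -0.47 to 0.37. Atp5a1 had 95284, 73692 and 60914 in the controls and 74766, 72039.8 and 73580 in the sponge libraries, a log2 fold change of -0.037 ± 0.17. For both, control 3 was the lowest library and the sponge libraries were close to control 2. Without control library 1 their log2 fold changes were 0.14 ± 0.090 and 0.13 ± 0.092.

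The membrane part and stalk of complex V had shorter transcripts and a larger excess in control library 1 (1.89-fold over 13 genes) than the F1 head (1.74-fold over 5). Subunit c, the rotor ring, is made from 3 genes with the same mature protein. Atp5g3 gave the highest level per kilobase (22565), 11.9 to 13.8 times that of Atp5g1 over the 6 libraries. It was 3.22 to 4.30 times that of Atp5g2, of whose 50-base words 87.4% are shared with other genes, so that its level is uncertain. Atp5l (ENSMUSG00000038717, chr9:44912557-44920742), which encodes subunit g, had the smallest p of all members: 2774, 1462 and 1927 in the controls and 1325, 1572 and 1210.3 in the sponge libraries. Sponge libraries 1 and 3 were below all controls and sponge library 2 lay between controls 2 and 3. For Atp5l the log2 fold change was -0.54 ± 0.24 (limma, unadjusted p = 0.0569, adjusted p = 0.925), and -0.30 ± 0.16 without control library 1; 68.5% of its words are shared with other genes. Atp5mpl, a small proteolipid of the membrane part, had 9017, 3108 and 3412 in the controls and 3813, 3167 and 3104 in the sponge libraries, log2 fold changes of -0.45 ± 0.38 and, without control library 1, 0.040 ± 0.11. Atp5o is counted under 2 overlapping identifiers whose sequences are largely shared, and they had 16519 and 15155 per kilobase.

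Over the 82 tested genes, no member passed the threshold in the comparison of 3 sponge with 3 control libraries (limma, smallest adjusted p = 0.925), higher or lower, and neither did any of the 22479 genes (0% in each direction). No member had an unadjusted p under 0.05, against 2.89% of all tested genes. EdgeR's quasi-likelihood test and DESeq2 on recovered counts called 0 members too. The log2 fold change was negative for 81 of the 82 genes, with a median of -0.20 and a range from -0.82 to 0.057; over all tested genes the median was 0.0061. No member had sponge values all above the controls, against 6.17% of all tested genes. Control library 1 was the highest library for all 82, so this count follows from that library and is no separate result. Over the members, the median of the half-width of the 95% interval was 0.65 on the log2 scale, so that changes of the size of the median were not detectable with these libraries.

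Without control library 1 the direction turned. The log2 fold change was positive for 76 of 82 genes, with a median of 0.14 (complex I 0.14, complex II 0.11, complex III 0.18, cytochrome c 0.22, complex IV 0.13, complex V 0.14), against 0.0095 over all tested genes. No member passed the threshold (limma, smallest adjusted p = 0.648), and 2 of all tested genes did, both higher (0.0089%). At an unadjusted p under 0.05 there were 17 of the 82 members, all higher, against 7.53% of all tested genes in either direction and 4% higher. In 40 of the 82 members (48.8%) all 3 sponge values lay above controls 2 and 3, against 13.4% of all tested genes, and in 2, Cox7a1 and Cox6b2, all lay below, against 11.2%. These values rest on 2 control libraries, of which control 3 was the lowest of the 6 for most members. Without control library 3 instead, the median was -0.39. The half-width of the 95% interval without control library 1 had a median of 0.21. The 6 genes that stayed negative without control library 1 were Ndufa3, Ndufs1, Cox4i2, Cox6b2, Cox7a1 and Atp5l.

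**Figure D3:**
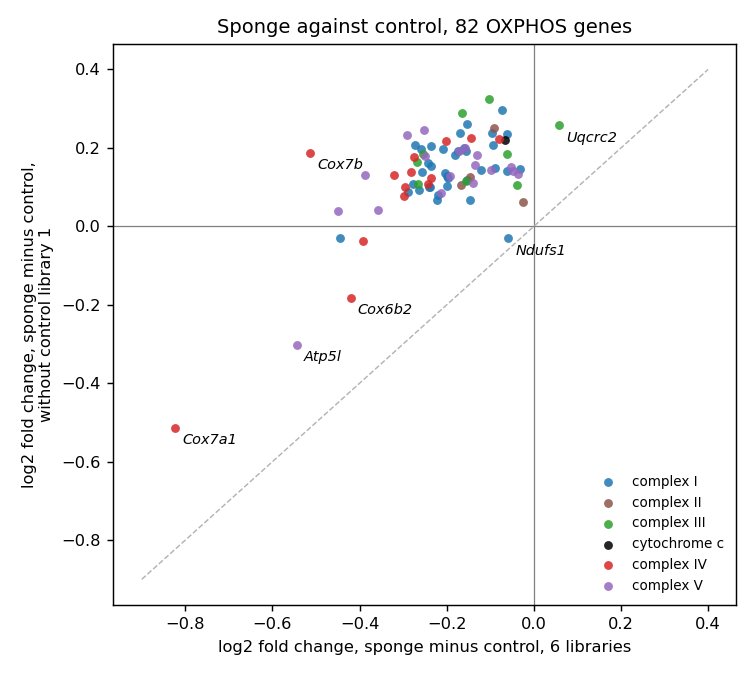
Log2 fold change of each of the 82 tested OXPHOS genes, sponge minus control, with all 6 libraries (x axis) and without control library 1 (y axis); colours mark complexes and the dashed line equal values. With 6 libraries 81 genes lie left of 0, and without control library 1 76 genes lie above 0; the lowest on both axes is Cox7a1, at -0.82 and -0.51.

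The excess of control library 1 varied with transcript length among the members. It had a median log2 ratio of 1.25 in the 14 genes under 500 bases, 0.98 in 30 genes of 500 to 750 bases, 0.86 in 11 of 750 to 1000, 0.81 in 11 of 1000 to 1500, and 0.53 in the 16 genes of 1500 bases or more. Across the 82 genes, which share their libraries, Spearman's rho between length and this ratio was -0.65; across 15597 tested protein-coding genes it was -0.52. The corresponding medians over tested protein-coding genes were 0.43, 0.80, 0.63, 0.49 and -0.062, so the median of the members was above that of their length class in each of the 5. The last class is not matched in length: its 12521 genes have no upper limit near that of the members, whose longest transcript has 3123 bases. Long members at the low end were Ndufs1 and Sdha, and among the highest were Atp5k, Atp5e and Atp5md, small subunits of the ATP synthase with 2.77-, 2.64- and 2.56-fold. Cox7b, of 1001 bases, lay farthest above the genes of its length. With the trend on length removed from each library, an alternative added after the data were seen, the median log2 fold change of the members was -0.10. What sets control library 1 apart was not tested.

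**Figure D4:**
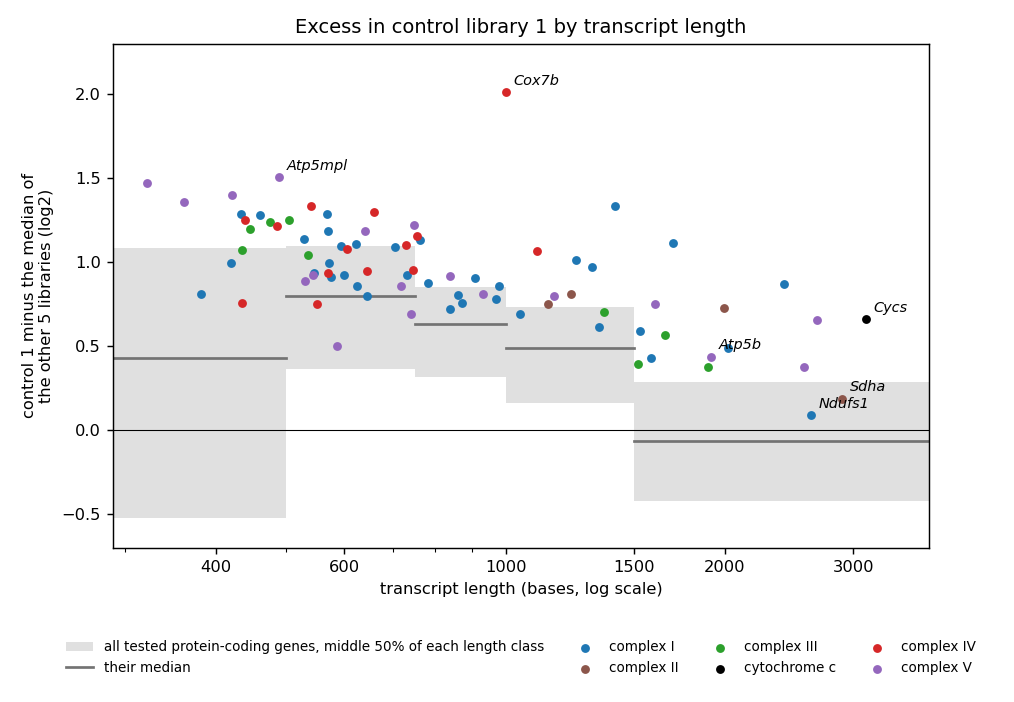
Log2 ratio of control library 1 to the median of the other 5 libraries (y axis) against transcript length in bases (x axis, log scale) for the 82 tested OXPHOS genes, coloured by complex; grey bands and lines give the middle 50% and the median of all tested protein-coding genes in 5 length classes. The medians of the members fall from 1.25 under 500 bases to 0.53 at 1500 bases or more.

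Lists of other genes of the pathway were read in the same fits, and 0 of their genes passed the threshold in either direction (limma). An unadjusted limma p under 0.05 was found for Lyrm7 (complex III assembly), Cox20 (complex IV assembly) and Rps3a3 (cytosolic ribosome), 1 gene in each list. No gene of the other lists had one, and over all tested genes the share was 2.89%. DESeq2 on recovered counts called Rps3a3 alone. Assembly factors, which build the complexes but are not part of them, had a smaller excess in control library 1: 1.31-fold over 14 genes for complex I, 1.39 over 4 for complex II, 1.24 over 6 for complex III, 1.23 over 19 for complex IV and 1.08 over 3 for complex V. Their median log2 fold changes were -0.12, -0.060, -0.092, -0.043 and -0.039. Their transcripts were also longer, with median lengths of 1197.5 to 2298 bases by list, against 737 for the tested members. The part of length in the smaller excess was not tested. Lyrm7, the chaperone that hands the Rieske protein Uqcrfs1 to complex III, had 676, 467 and 481 normalised counts in the controls and 889, 817 and 995 in the sponge libraries. All sponge values lay above all controls, control library 1 included. Lyrm7 had a log2 fold change of 0.75 ± 0.21 (limma, unadjusted p = 0.00716, adjusted p = 0.925) and 0.92 ± 0.16 without control library 1 (adjusted p = 0.384). Cox20, which guides the mitochondrially encoded subunit Cox2 into complex IV, had 7059, 6199.5 and 7534 in the controls and 4368, 5641 and 5516 in the sponge libraries, all lower. Cox20 had a log2 fold change of -0.43 ± 0.14 (limma, adjusted p = 0.925) and -0.41 ± 0.13 without control library 1. Cox17, the copper chaperone of complex IV, had 2542, 1654 and 1773 in the controls and 1370.0, 1633 and 1518 in the sponge libraries, also without overlap, and log2 fold changes of -0.38 ± 0.19 and -0.19 ± 0.12. In 3 other complex IV assembly factors all sponge values lay above the controls: Coa5, Taco1 and Cox15, with log2 fold changes of 0.21 ± 0.12, 0.17 ± 0.15 and 0.081 ± 0.11, and 0.12 ± 0.082, 0.17 ± 0.14 and 0.075 ± 0.088 without control library 1. Of the 19 factors, the groups thus did not overlap in 3 that were higher and 2 that were lower, against 6.17% and 5.04% of all tested genes. Atpaf2, which assembles the F1 head, had 2669.7, 2183 and 1816 in the controls and 2683, 2583 and 2765 in the sponge libraries, with control library 1 among the sponge values, and log2 fold changes of 0.29 ± 0.16 and 0.43 ± 0.11.

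The 12 regulators of these genes went both ways in control library 1. It was the highest library for 5 of them, against 7592 of all 22479 tested genes, and its log2 deviation from the median of the other 5 ran from -0.71 to 0.57, with a median of -0.11. Tfam, which packages and transcribes mitochondrial DNA, had 7969, 5420.3 and 5211 in the controls and 5285, 5771 and 5856 in the sponge libraries, with control library 1 highest. Over the 12 genes the median log2 fold change was -0.085. Ppargc1a, the coactivator of mitochondrial biogenesis, had 1360.4, 2093 and 2205 in the controls and 3061, 2320.3 and 2171 in the sponge libraries. The groups overlapped, and the log2 fold change was 0.43 ± 0.23 and 0.21 ± 0.14 without control library 1. Esrra, a nuclear receptor that works with it, had 5011, 4331 and 4508 in the controls and 3859, 4465 and 3842 in the sponge libraries, log2 fold changes of -0.19 ± 0.13 and -0.13 ± 0.099. Nrf1, Gabpa and Yy1 encode factors whose words were searched in the promoters and were added for that reason. Nrf1, with lower sponge values, and Gabpa, with higher ones, were also the only regulators of the 12 whose groups did not overlap. Of all tested genes, 5.04% did not overlap with lower and 6.17% with higher sponge values. Nrf1 had 8277, 7084 and 7301 in the controls and 6820.2, 6761 and 6948 in the sponge libraries, all below the controls, a log2 fold change of -0.14 ± 0.11 (limma, adjusted p = 0.925) and -0.072 ± 0.078 without control library 1. Gabpa, the ETS subunit of GABP, had 8273, 11014 and 11042 in the controls and 11253, 11505 and 11638 in the sponge libraries, all above the controls, a log2 fold change of 0.19 ± 0.14 (adjusted p = 0.925) and 0.056 ± 0.074 without control library 1. Yy1, a zinc finger factor, had 14458, 17936 and 17004 in the controls and 17757, 16370.5 and 16885 in the sponge libraries, which overlapped, and log2 fold changes of 0.052 ± 0.12 and -0.039 ± 0.077.

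Other parts of the energy metabolism were read in the same way. The 13 genes of the tricarboxylic acid cycle were 1.14-fold in control library 1, with a median log2 fold change of 0.040. Ogdh, a subunit of the 2-oxoglutarate dehydrogenase, had 13222, 17216 and 16974 in the controls and 19771, 17497 and 17794 in the sponge libraries, without overlap, and log2 fold changes of 0.22 ± 0.14 and 0.10 ± 0.081. The groups did not overlap in 2 of the 13 genes with higher and 1 with lower sponge values, against 6.17% and 5.04% of all tested genes. The 16 genes of glycolysis, tested as 17 rows because Aldoa has 2 identifiers, were 1.52-fold in control library 1, with a median log2 fold change of -0.15. The 78 genes of the mitochondrial ribosome were 1.56-fold, with -0.14 and 73 of 78 negative. Mrpl48, a protein of its large subunit, went the other way: 6039.6, 5743 and 5983 in the controls and 7676, 7437 and 6357 in the sponge libraries, a log2 fold change of 0.27 ± 0.12 (limma, adjusted p = 0.925) and 0.28 ± 0.097 without control library 1. It was the only one of the 78 with all sponge values above the controls (6.17% of all tested genes), and in 3 all lay below (5.04%). The 75 genes of the cytosolic ribosome, with short transcripts as well, were 2.20-fold in control library 1, with 72 of 75 negative. The 13 partners of the nuclear subunits encoded in mitochondrial DNA went both ways there, with log2 deviations of control library 1 from -3.30 to 1.86. Both ends are genes of few counts, mt-Atp8 and mt-Nd3, with 2.00 and 43.0 normalised counts in control library 1. Control library 1 was the highest library for 4 of them, among them mt-Nd1 (200264 normalised counts, against 148488 to 190107 in the others), and the lowest for others, such as mt-Co1 (200994 against 345511 to 438740). Few counts were found for mt-Co2, mt-Atp8, mt-Atp6, mt-Co3, mt-Nd3 and mt-Nd4l, at most 130 in a library (mt-Co3 in control library 3). They weigh as much as the others in the median and the range, and add little to the share of counts. Sharing of sequence with copies elsewhere was measured for the nuclear members, and was not tested for the mitochondrially encoded genes. Whether reads of these genes were dropped or split is thus not known. Their few counts are not read as low expression, and the share below is one of counted reads only. Together the 13 genes made up 0.648% of counts in control library 1, 0.744% and 0.948% in controls 2 and 3, and 0.775% to 0.898% in the sponge libraries. Their median log2 fold change was -0.015.

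**Figure D5:**
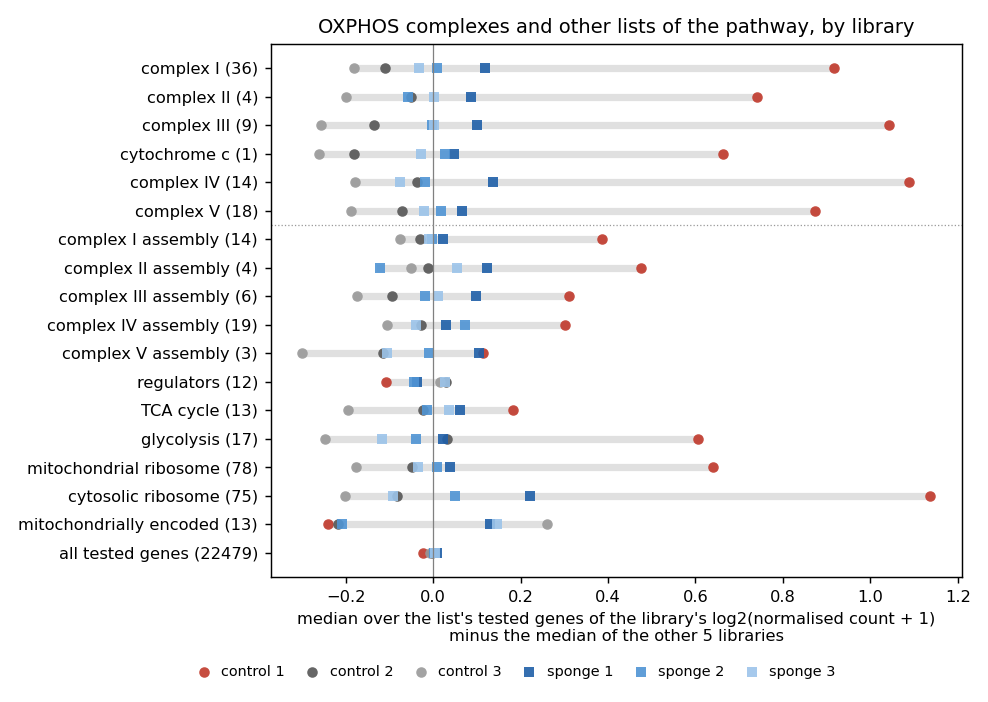
For each complex (above the dotted line) and each other list of the pathway (below it), the median over tested genes of a library's log2(normalised count + 1) minus the median of the other 5 libraries (x axis); numbers in brackets are tested genes, circles controls and squares sponge libraries. Control library 1 lies at 1.09 for complex IV, 1.14 for the cytosolic ribosome and -0.24 for the mitochondrially encoded genes.

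The authors' deposited table of their own comparison lists 10812 genes, 78 of them OXPHOS members. Its smallest mean normalised count was 1003, while the limma fit took a mean of at least 10. Low members such as Cox7a1 and Cox6b2 are thus not in it. Of the 78 members, 77 in the authors' deposited table had a negative and 1 a positive log2 fold change, with a median of -0.28 and a range from -0.87 to 0.028. None had an adjusted p under 0.05 there, against 1 of its 10812 genes (0.00925%), the smallest unadjusted p being 0.0242 for Atp5l and the adjusted p-values lying between 0.9954 and 0.9998. The sign was the same as in the limma fit for 78 of 78.

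Reads of near-identical copies make single values uncertain. Of the 82 tested members, 22 shared at least 10% of their 50-base words with other genes. Over the other 60, the median log2 fold change was -0.19 and, without control library 1, 0.14, and the median log2 excess of control library 1 was 0.91.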

How the data were processed

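Messenger RNA libraries were made from 50 ng of total RNA with a stranded ligation kit, per the labels. The submitters' processing notes name STAR 2.7.6a, DESeq2 1.30.1 and the builds mm10 and GRCm38. No annotation, counter or strand setting is named there. The deposited values are normalised counts, a signal on a linear scale that the authors made by dividing gene counts by 1 factor per library. In each of the 6 columns 100% of values were whole multiples of 1 step, to within 1e-06, so whole reads could be recovered. The second deposited table holds the authors' own comparison: log2 fold changes, p-values and adjusted p-values, per the file headers. All 6 columns of the count table were matched to samples by name.

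Genes with a mean of at least 10 (22479 of 35510) entered a limma fit (version 3.58.1, R 4.3.3; trend and robust options, log2 of value plus 1, two-sided, Benjamini-Hochberg over all tested genes, threshold 0.05). This scale understates changes of low genes. Alternatives were edgeR 4.0.16 and DESeq2 1.42.0 on recovered counts (edgeR called 0 of 22479 genes, DESeq2 4 higher and 4 lower, no member), other scalings, pseudocounts and filters, each library left out, a replicate block and array weights. The fit was tested on simulated data. GENCODE release M21 (GRCm38) gave transcripts, positions and 3′ UTRs; it holds all 89 members, 85 of them protein-coding, and length is the median over a gene's protein-coding basic transcripts.

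The members, gene lists, tests and naming rule were chosen with earlier results of these data known. The rule names core subunits, the highest and lowest levels per kilobase, the smallest p, the longest and shortest transcripts of each complex, genes whose groups do not overlap, complex IV and subunit c paralogues, and, from each other list, at most 2 genes by p; those that show most are given. Genes with a seed match were added. Coa5, Taco1, Cox15, Tfam, Yy1 and the mitochondrially encoded genes were named after their values were seen. The values of 1 member are not reported here; it is included in counts and medians. The number of libraries limits the precision, and counting depth was lowest for Cox7a1, with 46 recovered counts in its lowest library and the widest SE of the tested members without control library 1 (0.39).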

Additional observations from a re-analysis of the deposited data

How the results depend on the processing

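No member passed the threshold under any alternative run: edgeR or DESeq2 on recovered counts, quantile normalisation, pseudocounts of 0.5 and 10, no filter on low values, a mean of at least 100, each library left out, the replicate block, array quality weights estimated by REML or gene by gene, and the trend on length removed (added after the data were seen). EdgeR gave a median log2 fold change of -0.29 over the members. Leaving out 1 library at a time, the number of members past the threshold was 0 in each case. The median log2 fold change ranged -0.39 to 0.14 for all members, -0.38 to 0.14 for complex I, -0.31 to 0.11 for complex II, -0.35 to 0.18 for complex III, -0.23 to 0.22 for cytochrome c, -0.50 to 0.13 for complex IV, -0.39 to 0.14 for complex V; each highest value came without control library 1 and each lowest without control library 3. Array quality weights gave control library 1 a weight of 0.126, but their REML estimate stopped before reaching its tolerance, so a gene-by-gene estimate was added after the data were seen (weight 0.116). In that order, the medians were positive under both: all members (0.075 and 0.081), complex I (0.084 and 0.091), complex II (0.026 and 0.033), complex III (0.11 and 0.12), cytochrome c (0.16 and 0.17), complex IV (0.030 and 0.036), complex V (0.053 and 0.063). Both turned the sign of Ndufv1 (0.0066 and 0.016), Ndufb7 (0.011 and 0.020), Sdhb (0.026 and 0.031), Sdhc (0.027 and 0.036), Uqcrc1 (0.11 and 0.12), Uqcrh (0.079 and 0.088), Uqcrb (0.0091 and 0.017), Cyc1 (0.076 and 0.081), Cycs (0.16 and 0.17), Cox4i1 (0.12 and 0.13), Cox7b (0.10 and 0.11), Atp5a1 (0.023 and 0.033), Atp5b (0.038 and 0.048), Sdhd (0.16 and 0.17), Ndufb2 (0.075 and 0.082), Ndufa10 (0.039 and 0.048), Yy1 (-0.068 and -0.068). Removing the trend on length turned Uqcrc1 (0.010), Cyc1 (0.039), Atp5b (0.0054), Sdhd (0.00098), Yy1 (-0.10), Cox15 (-0.015), and quantile normalisation turned Atp5a1 (0.033). The ranges of genes whose sign turned without 1 library were -0.29 to 0.066 for Ndufv1, -0.49 to 0.087 for Ndufb7, -0.11 to 0.062 for Sdha, -0.34 to 0.10 for Sdhb, -0.33 to 0.13 for Sdhc, -0.22 to 0.19 for Uqcrc1, -0.079 to 0.26 for Uqcrc2, -0.49 to 0.16 for Uqcrh, -0.49 to 0.11 for Uqcrb, -0.12 to 0.11 for Cyc1, -0.23 to 0.22 for Cycs, -0.42 to 0.22 for Cox4i1, -0.91 to 0.19 for Cox7b, -0.19 to 0.13 for Atp5a1, -0.21 to 0.14 for Atp5b, -0.73 to 0.040 for Atp5mpl, -0.29 to 0.25 for Sdhd, -0.37 to 0.10 for Ndufb2, -0.23 to 0.14 for Ndufa10, -0.039 to 0.12 for Yy1.

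Control and sponge libraries with the same number did not deviate together (correlations of 0.0096, 0.0054 and -0.053), so the numbers were not taken to pair the samples. With the replicate block the median log2 fold change of the members was -0.20, and 0 members passed. With 3 libraries a group, the precision is set by the number of pools and by control library 1; the cause of its excess was not tested.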

Other observations

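Several genes of the same pathway fall outside the symbols used to choose the members. Ndufab1, the acyl carrier protein that is also a subunit of complex I, had 5556, 3876 and 3765 normalised counts in control libraries 1 to 3 and 3719, 3760.2 and 3176 in sponge libraries 1 to 3, so that all sponge values lay below all controls. Its log2 fold change was -0.29 ± 0.18 (SE; limma, adjusted p = 0.925) and -0.11 without control library 1. Ndufb1-ps, a row named as a pseudogene, had 4992, 1823 and 2080.0 in the controls and 2699.5, 2220.3 and 2215 in the sponge libraries, again with its highest value in control library 1. Its log2 fold change was -0.17 ± 0.35 and 0.28 without that library. Ndufa4l2, a relative of Ndufa4 known to be induced by low oxygen, had 195, 92.5 and 55.6 in the controls and 23.7, 95.9 and 117 in the sponge libraries, which overlapped. Cyct, the testis version of cytochrome c, had 42.0, 6.31 and 6.07 in the controls and 0, 12.5 and 5.30 in the sponge libraries.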
